A study of Homo sapiens with 32 samples.

Results

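The heat shock, DNAJ and chaperonin genes are the protein-coding genes whose symbol starts with HSPA, HSPB, HSPD, HSPE, HSPH, HSP90, DNAJ or CCT and a digit, with CRYAB added. The rule found 86 genes among the 60728 rows of the counts table; 136 further rows carried such a symbol but were not protein coding, and were left out. By subfamily these were 15 HSPA and HSPH genes, 11 HSPB genes with CRYAB, 3 HSPD and HSPE genes, 3 HSP90 genes, 4 DNAJA, 12 DNAJB, 29 DNAJC and 9 CCT genes. Polyadenylated RNA was sequenced from A549, a lung adenocarcinoma cell line, and SK-MEL-147, a melanoma cell line, on day 7. In each line the groups were untreated cells, cells given doxorubicin (100 nM, a drug that breaks DNA), cells given palbociclib (an inhibitor of CDK4 and CDK6, 5 uM in A549 and 1 uM in SK-MEL-147), and cells given INK128 (an inhibitor of the kinase mTOR, 200 nM in A549 and 100 nM in SK-MEL-147). Doxorubicin and palbociclib, used to induce senescence, were withdrawn after 72 h, whereas INK128, used to induce a diapause-like state, was renewed at each medium change, every 3 days. For INK128 the series text speaks of SK-Mel-103; the samples themselves are all labelled SK-MEL-147, and that name is used here. Each of the 8 groups held 4 libraries, giving n = 4 in SK-MEL-147 and n = 3 in A549, where both libraries that the labels number 2 were added together.

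Chaperones bind unfolded or partly folded proteins and help them reach or keep their shape. HSP70 proteins (HSPA genes) hold and release short stretches of client protein in cycles driven by ATP; DNAJ proteins bring the clients and start the ATP hydrolysis, and HSPH proteins exchange the nucleotide. HSP90 proteins act later in folding, often on kinases and receptors, while the CCT ring encloses newly made actin and tubulin, and HSPD1 with its lid HSPE1 does a like job in mitochondria. The small heat shock proteins (HSPB genes and CRYAB) bind unfolding proteins without ATP. Heat and other stresses raise many of these genes through the transcription factor HSF1, which binds heat shock elements, whereas the chaperones of the endoplasmic reticulum (ER) answer to the unfolded protein response.

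Library totals ran from 28150560 to 33331334 counts in A549 and from 17929732 to 32407057 in SK-MEL-147. Together the 86 genes took 2.01 to 2.17% of all counts in untreated A549 and 1.63 to 2.12% in untreated SK-MEL-147. This share was 1.22 to 1.5% with doxorubicin, 1.2 to 1.45% with palbociclib and 1.22 to 1.27% with INK128 in A549. In SK-MEL-147 it was 1.05 to 1.15%, 1.13 to 1.24% and 0.880 to 1.03% in the same order, so that no treated sample of either line reached its lowest control. Levels are given as CPM, counts scaled to a common library total, and fewer transcripts per cell cannot be told apart from more RNA of other genes. Of 10 epithelial markers, 7 stood at 1 CPM or more in each A549 group. The sum over all 10 was 7587 to 11056 CPM in A549 controls and fell to 3912 to 4529 CPM with INK128. It was 10489 to 11765 CPM with doxorubicin and 11277 to 12798 CPM with palbociclib. Untreated SK-MEL-147 had 162 to 196 CPM over the same markers and 273 to 364 CPM over 10 melanocyte markers. The melanocyte sum in SK-MEL-147 was 277 to 448 CPM with doxorubicin, 176 to 262 CPM with palbociclib and 535 to 635 CPM with INK128. In each SK-MEL-147 group SOX10 led this list and MITF came next, while MLANA had no count in controls and PMEL stood below 1 CPM in every group mean. Leukocyte markers summed to at most 36.7 CPM in any A549 sample and 3.87 CPM in any SK-MEL-147 sample. Replicate 1 of A549 with doxorubicin and with palbociclib stood apart, with 18.3% and 17.3% of counts from the mitochondrial genome against 7.23 to 8.26% in controls. All A549 samples given INK128 lay at 12.1 to 14.3%. In SK-MEL-147 the share was 2.38 to 3.24% in controls, 3.5 to 5.61% with doxorubicin, 4.80 to 5.89% with palbociclib and 3.19 to 5.06% with INK128; its part in the results was not tested beyond a fit without these genes. For many calls that depend on replicate 1 the value without it is given, though not for HSPA1B in A549.

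Of the 86 genes, 72 had enough counts to be tested in A549 and 69 in SK-MEL-147, all 69 being among the 72. The other 14 were tested in neither line: 4 of them had no count (CCT8L2, DNAJB8, HSPB2-C11orf52 and HSPE1-MOB4), and 11 had fewer than 20 counts over all libraries, these 4 included. A gene was called higher or lower where edgeR's quasi-likelihood F test gave a Benjamini-Hochberg adjusted p under 0.05 over all genes tested. Changes are log2 fold changes with their standard error. Per transcript length, HSPA8 had the highest level of the 86 in untreated cells, 2030 TPM (length-scaled CPM) in A549 and 1990 in SK-MEL-147. HSP90AA1 followed at 1809 and 1866, HSP90AB1 at 1497 and 1331, and HSPD1 at 1031 and 773.

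Since heat shock and ER stress act through short promoter elements, the 250 bases before the RefSeq start (GRCh38.p14) are shown for members on both sides of the results, in transcript direction. HSPA8 (chr11:123062137-123062386, minus strand), which fell with each drug, holds 2 matches to a heat shock element of 3 units, searched as GAANNTTCNNGAA or TTCNNGAANNTTC. HSPA1A (chr6:31815293-31815542, plus strand), lower with each drug in A549, and HSPB1 (chr7:76302423-76302672, plus strand) and HSPB8 (chr12:119178681-119178930, plus strand), higher with doxorubicin and palbociclib, each hold the 2-unit form GAANNTTC. HSPA5 (chr9:125241344-125241593, minus strand) and HSP90B1 (chr12:103930160-103930409, plus strand), whose levels with those drugs were not called different from control, hold 1 and 2 matches to the ER stress element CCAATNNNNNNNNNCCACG. The matches are in capitals.
HSPA8: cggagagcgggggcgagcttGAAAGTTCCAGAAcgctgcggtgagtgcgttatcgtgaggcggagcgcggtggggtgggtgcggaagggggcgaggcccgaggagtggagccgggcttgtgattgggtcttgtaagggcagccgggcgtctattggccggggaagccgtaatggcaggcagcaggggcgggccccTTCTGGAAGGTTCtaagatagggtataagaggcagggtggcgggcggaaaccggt
HSPA1A: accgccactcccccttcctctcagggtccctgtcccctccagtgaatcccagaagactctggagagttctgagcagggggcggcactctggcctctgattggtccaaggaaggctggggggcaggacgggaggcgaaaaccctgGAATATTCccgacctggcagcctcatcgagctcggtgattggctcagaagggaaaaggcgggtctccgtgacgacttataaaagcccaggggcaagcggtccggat
HSPB1: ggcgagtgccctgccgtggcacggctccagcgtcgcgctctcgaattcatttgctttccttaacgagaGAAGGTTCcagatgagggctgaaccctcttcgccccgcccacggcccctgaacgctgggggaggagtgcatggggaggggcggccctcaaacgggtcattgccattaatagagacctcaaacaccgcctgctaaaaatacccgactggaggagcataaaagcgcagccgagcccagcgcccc
HSPB8: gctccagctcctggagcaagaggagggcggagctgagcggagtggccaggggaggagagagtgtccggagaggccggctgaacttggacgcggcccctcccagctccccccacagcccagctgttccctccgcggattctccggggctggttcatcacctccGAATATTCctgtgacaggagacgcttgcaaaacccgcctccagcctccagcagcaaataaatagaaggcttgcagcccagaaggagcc
HSPA5: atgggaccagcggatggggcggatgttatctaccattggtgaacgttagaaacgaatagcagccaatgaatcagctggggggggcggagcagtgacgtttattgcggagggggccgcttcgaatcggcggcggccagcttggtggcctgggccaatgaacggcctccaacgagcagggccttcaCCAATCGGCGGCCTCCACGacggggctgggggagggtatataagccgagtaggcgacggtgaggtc
HSP90B1: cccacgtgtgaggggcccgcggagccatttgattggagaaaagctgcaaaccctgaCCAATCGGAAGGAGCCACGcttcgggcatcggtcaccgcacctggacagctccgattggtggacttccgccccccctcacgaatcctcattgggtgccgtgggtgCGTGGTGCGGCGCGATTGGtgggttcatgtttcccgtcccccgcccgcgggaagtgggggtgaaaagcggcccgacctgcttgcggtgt

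In HSPA8 the matches lie 230 to 218 and 55 to 43 bases before the start, and in HSPB8 88 to 81 bases before it. Promoter entries were found for 76 of the 86 genes, and not for CRYAB. The search covered both strands of the 250 bases before the start, for members and for all promoters alike. The 3-unit element stood in 3 of the 76 (HSPA6, DNAJB6 and HSPA8) and in 120 of all 27305 promoters, or 0.439%. The 2-unit form GAANNTTC, which every 3-unit match contains, stood in 11 of the 76, or 14.5%, and in 5.85% of all promoters; its mirror TTCNNGAA stood in 9.21% and 6.72%. Neither the 3-unit element nor GAANNTTC was in the windows of the CCT, HSPD, HSPE, HSP90 or DNAJC genes. The ER stress element was in 2 of the 76 (HSPA5 and HSP90B1) and in 22 of all promoters, or 0.0806%. These are letter matches, which do not show binding.

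In A549, doxorubicin left 15 of the 72 tested members higher and 29 lower than control, where 22.4% and 20.9% of all 19550 genes tested were higher and lower. Palbociclib left 10 higher and 29 lower, against 22.2% and 21.1% of all genes, and INK128 left 7 higher and 37 lower, against 20.5% and 19.7%. In either direction 43.3% of all genes were called with doxorubicin, 43.3% with palbociclib and 40.2% with INK128. Among 69 members in SK-MEL-147, doxorubicin left 20 higher and 30 lower, where 30.9% and 28.9% of all 18516 genes were. Palbociclib left 18 higher and 27 lower (29.7% and 28.7% of all genes) and INK128 left 15 higher and 43 lower (29.8% and 28.9%). In either direction 59.8%, 58.4% and 58.7% of all genes were called there. The median change of the tested members was -0.21, -0.26 and -0.43 in A549, with -0.25, -0.20 and -0.51 in SK-MEL-147, in the order doxorubicin, palbociclib, INK128, and that of all genes was between 0.00 and 0.03 in absolute size. In all 6 comparisons with control the lower calls included 7 CCT genes, HSP90AA1, HSP90AB1, HSPD1, HSPA8, HSPA9, HSPA14, HSPH1, HSPBP1, DNAJA3, DNAJC2, DNAJC7, DNAJC8 and DNAJC9. The higher calls included DNAJB9 and DNAJC4 in all 6. No other member was called in the same direction in all 6. The share of all genes called alike in all 6 is not given here, so whether these lists are unusual was not tested. The 3 comparisons of a line share its control samples, so that their values are given side by side and not as support for each other.

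**Figure D1:**
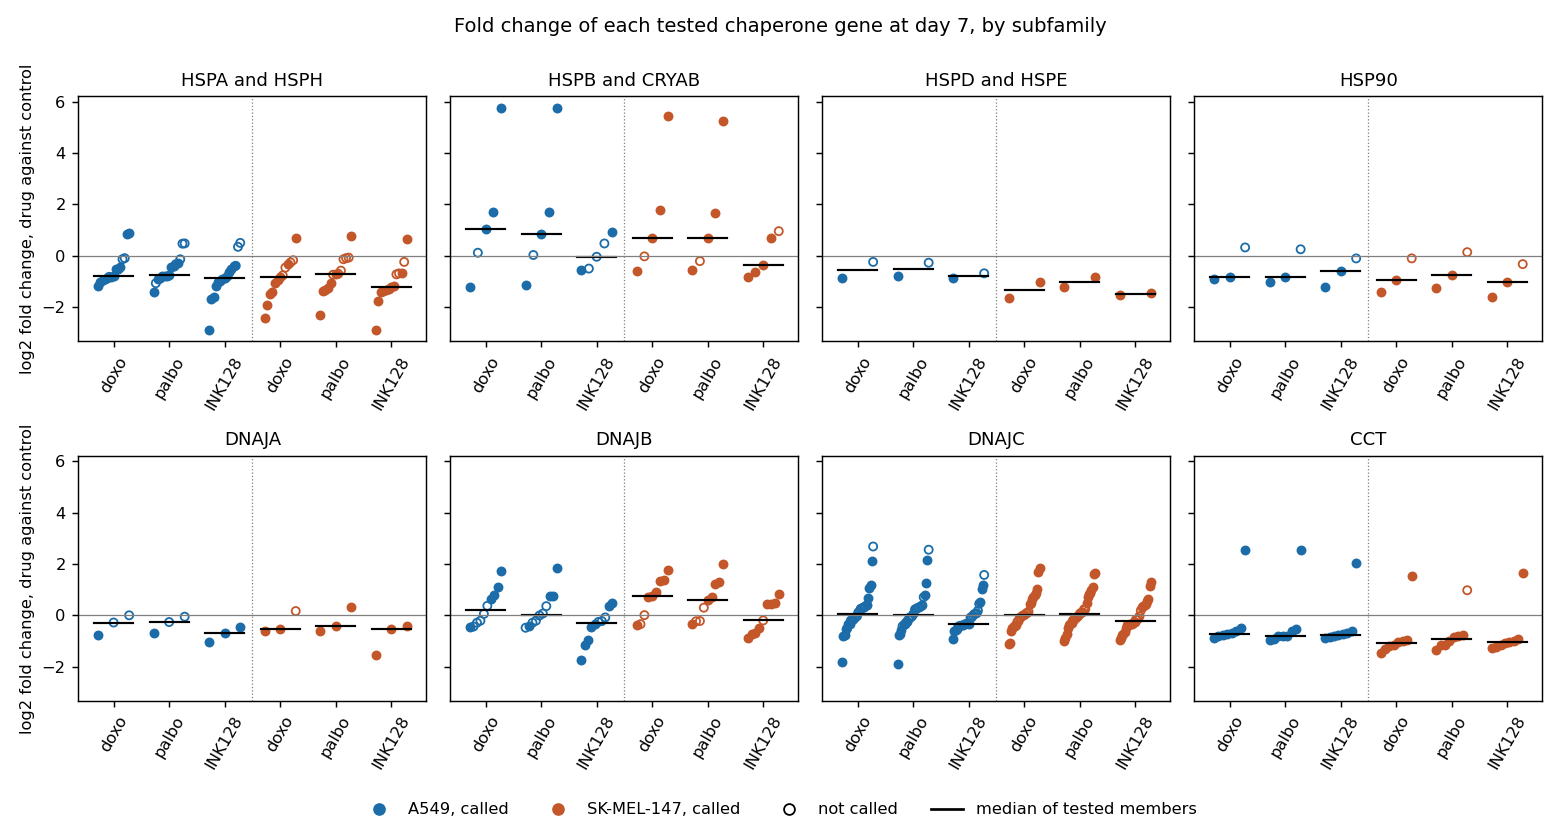
Log2 fold change of every tested member against untreated cells (y axis) for doxorubicin, palbociclib and INK128 in A549 (blue) and SK-MEL-147 (orange), 1 panel per subfamily. Filled points were called at adjusted p under 0.05, open points were not, and bars are medians; 7 CCT subunits lie below 0 in each column, and the points above 5 in the HSPB and CRYAB panel are CRYAB.

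The genes of the CCT ring fell together. CCT2, CCT3, CCT4, CCT5, CCT6A, CCT7 and CCT8, which encode 7 of the ring's subunits, were each called lower with each drug in each line. Treated and control samples did not overlap in any of them. The share of all genes without overlap was not counted, so whether this is unusual was not tested. Their log2 changes in A549 ran from -0.88 to -0.50 with doxorubicin, from -0.95 to -0.54 with palbociclib and from -0.89 to -0.60 with INK128. In SK-MEL-147 they ran from -1.46 to -0.97, from -1.37 to -0.75 and from -1.27 to -0.91 in the same order. In A549 the CCT8 call with doxorubicin was lost in 5 of 6 omissions of 1 sample, all but those of doxorubicin replicate 1 (-0.51 to -0.41), and that with palbociclib without palbociclib replicate 2 or 3, or control replicate 2 (-0.53 to -0.45). TCP1, the subunit outside the symbol rule, was called lower as well, at -0.85 ± 0.10, -0.79 ± 0.10 and -0.80 ± 0.10 in A549, with -1.48 ± 0.13, -1.25 ± 0.13 and -1.19 ± 0.13 in SK-MEL-147.

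CCT2 (ENSG00000166226, chromosome 12, 69585334 to 69601570, GRCh38) stood at 424, 464 and 423 CPM in the 3 untreated A549 samples. It stood at 234, 260.2 and 264 CPM with doxorubicin, 223, 253 and 221 CPM with palbociclib and 273, 277 and 235 CPM with INK128. SK-MEL-147 samples had 461, 631, 618 and 687 CPM in controls, against 230.4, 195, 234 and 212 CPM with doxorubicin, 219, 230.2, 266 and 212 CPM with palbociclib and 239, 236, 257 and 259 CPM with INK128. The lowest control lay well above the highest treated sample in both lines, and control replicate 1 of SK-MEL-147 was the lowest of its group. The change of CCT2 was -0.79 ± 0.11, -0.91 ± 0.11 and -0.74 ± 0.11 in A549 (adjusted p 0.000206, 7.51e-05 and 0.000568, edgeR) and -1.46 ± 0.12, -1.37 ± 0.12 and -1.27 ± 0.12 in SK-MEL-147. CCT5 changed by -0.88 ± 0.13, -0.95 ± 0.13 and -0.89 ± 0.13 in A549 and by -0.97 ± 0.13, -0.82 ± 0.13 and -1.05 ± 0.13 in SK-MEL-147; 30.1% of its exon bases lie opposite another annotated gene. CCT6B, a subunit form known from testis, was called higher with each drug in A549, at 2.53 ± 0.27, 2.57 ± 0.27 and 2.06 ± 0.27, from low counts of 20, 34 and 12 in the control samples to 81, 208 and 81 with doxorubicin. In SK-MEL-147 CCT6B had at most 25 counts in a sample, and was called higher with doxorubicin (1.52 ± 0.45) and INK128 (1.67 ± 0.45). Summed over the CCT genes, untreated A549 samples held 3584 to 3824 CPM, and those given INK128 2055 to 2243 CPM. The same sum was 3227 to 4632 CPM in untreated SK-MEL-147 samples, against 1815 to 2017 CPM with INK128.

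Both cytosolic HSP90 genes fell with each drug in each line, while the ER form was not called. HSP90AA1, the stress-inducible cytosolic form (ENSG00000080824, chromosome 14, 102080738 to 102139699), stood at 3446, 3544 and 2949 CPM in untreated A549. With doxorubicin it stood at 1339.5, 1964 and 2050.0 CPM, with palbociclib at 1231, 1941 and 1784 CPM and with INK128 at 1426, 1528 and 1372 CPM. Every treated sample was below every control, with replicate 1 the lowest of the doxorubicin and of the palbociclib samples. In SK-MEL-147 controls were at 2487, 3407, 3496 and 4475 CPM, and the samples with doxorubicin at 1244, 1401, 1308 and 1327 CPM, with palbociclib at 1313, 1534, 1397 and 1536 CPM and with INK128 at 988, 996, 1252 and 1313 CPM. Again no treated sample reached a control. The changes were -0.89 ± 0.20, -1.0 ± 0.20 and -1.2 ± 0.20 in A549, with -1.39 ± 0.16, -1.26 ± 0.16 and -1.61 ± 0.16 in SK-MEL-147. In the same order edgeR's adjusted p was 0.00361, 0.00179, 0.000902, 1.12e-06, 3.72e-06 and 6.6e-07. HSP90AB1, the constitutive form, changed by -0.83 ± 0.10, -0.81 ± 0.10 and -0.59 ± 0.10 in A549 and by -0.93 ± 0.13, -0.74 ± 0.13 and -1.01 ± 0.13 in SK-MEL-147, all called. HSP90B1, the form of the ER, was not called in any of these comparisons, with changes from -0.33 (SK-MEL-147, INK128) to 0.33 (A549, doxorubicin).

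**Figure D2:**
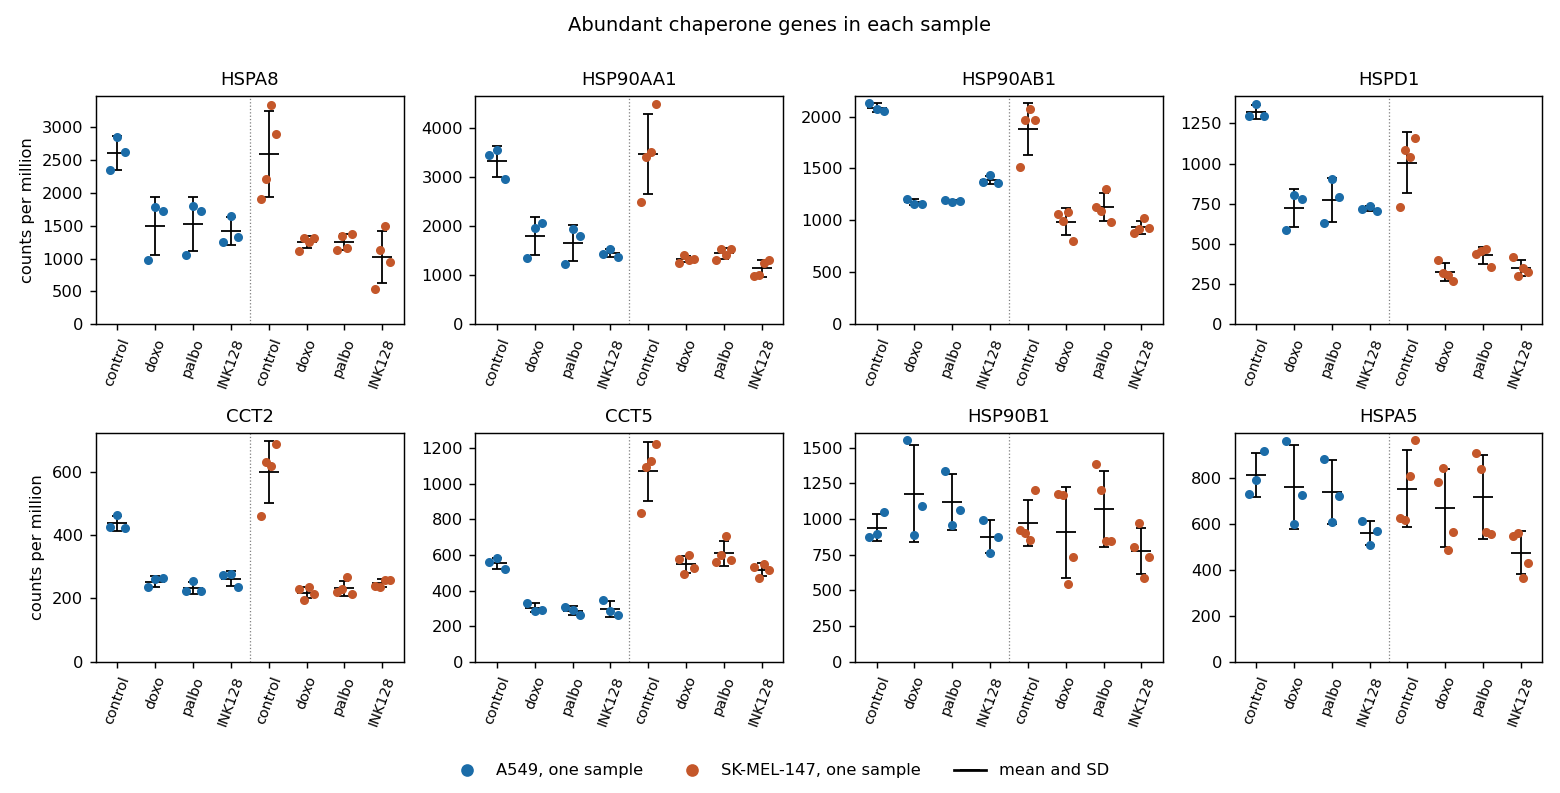
Level in CPM (y axis, from 0) of 8 abundant chaperone genes in each of the 28 samples, by group; points are samples and bars are mean and SD (n = 3 in A549, n = 4 in SK-MEL-147). HSPA8, HSP90AA1, HSP90AB1, HSPD1, CCT2 and CCT5 are lower in every treated group's mean than in control, while HSP90B1 and HSPA5 overlap with control under doxorubicin and palbociclib.

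Among cytosolic HSP70 genes, HSPA8, the constitutive form that also strips clathrin from vesicles (ENSG00000109971, chromosome 11, 123057489 to 123063230), had its promoter shown above. Its level was 2354, 2860.1 and 2618 CPM in untreated A549, 985, 1782 and 1722 CPM with doxorubicin, 1054, 1795 and 1721 CPM with palbociclib and 1253, 1656 and 1334 CPM with INK128. Treated samples did not overlap with controls, and replicate 1 was the lowest of each treated group. Levels in SK-MEL-147 were 1902, 2209, 3345 and 2905 CPM in controls, 1118, 1311, 1251 and 1308 CPM with doxorubicin, 1138, 1337, 1161 and 1381 CPM with palbociclib and 536, 1130.0, 1494 and 948 CPM with INK128, again without overlap. The changes were -0.80 ± 0.25, -0.78 ± 0.25 and -0.88 ± 0.25 in A549, with -1.05 ± 0.24, -1.05 ± 0.24 and -1.33 ± 0.24 in SK-MEL-147. In A549 the call was lost when doxorubicin replicate 1 was left out (-0.56, adjusted p 0.0585, edgeR), or palbociclib replicate 1 (-0.56, 0.078), and likewise without control replicate 2 (-0.73 and -0.70) or 3 (-0.80 and -0.77). With INK128 it was lost without INK128 replicate 1 or 3 or control replicate 2 (-0.85 to -0.80, adjusted p 0.0508 to 0.0539).

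HSPA1A and HSPA1B, the strongly heat-inducible pair, have near-identical sequences, so that reads may be shared between them. HSPA1A stood at 639.7, 985 and 666 CPM in untreated A549 and at 329.8, 466 and 406 CPM with doxorubicin, 388, 486 and 454 CPM with palbociclib and 313, 510.0 and 417 CPM with INK128, all below control. It changed by -0.93 ± 0.22, -0.79 ± 0.22 and -0.89 ± 0.22 in A549, where the call with palbociclib was lost without control replicate 2 (-0.56, edgeR adjusted p 0.0666). In SK-MEL-147 its control samples were spread over 103, 75.0, 302 and 149.5 CPM and overlapped with those of doxorubicin, 102, 98.8, 92.2 and 77.6 CPM, of palbociclib, 122, 90.6, 92.3 and 82.4 CPM, and of INK128, 50.2, 56.9, 95.9 and 37.2 CPM. Only INK128 was called there (-1.39 ± 0.34), while doxorubicin and palbociclib gave -0.76 ± 0.34 and -0.70 ± 0.34; without control replicate 1 or 2 these became called, at -0.91 and -0.97 with doxorubicin and -0.85 and -0.91 with palbociclib. HSPA1B changed by -1.03 ± 0.31, -0.86 ± 0.31 and -0.98 ± 0.31 in A549, where the doxorubicin call was lost without doxorubicin replicate 1 or control replicate 2, the palbociclib call in 5 of 6 omissions of 1 sample, all but those of control replicate 1, and the INK128 call without INK128 replicate 1 or 3, or control replicate 2. In SK-MEL-147 its call with doxorubicin (-0.82 ± 0.34) was lost in 6 of 8 omissions of 1 sample, all but those of control replicate 1 and 2, with the smallest change, -0.31, without control replicate 3 (edgeR adjusted p 0.34). Palbociclib gave -0.74 ± 0.34 there, not called, and INK128 -1.41 ± 0.34, called lower. HSPH1, an exchange factor for HSP70, was called lower throughout, at -0.82 ± 0.19, -0.89 ± 0.19 and -1.18 ± 0.19 in A549, with -1.47 ± 0.14, -1.33 ± 0.14 and -1.76 ± 0.14 in SK-MEL-147. HSPA14, which works at the ribosome, averaged 40.5 ± 1.69 CPM (SD, n = 3) in untreated A549 against 13.1 ± 2.20 CPM with INK128. In SK-MEL-147 HSPA14 averaged 34.0 ± 4.77 CPM (SD, n = 4) untreated, against 13.8 ± 2.32 CPM with INK128; over both lines, in the order used so far, it was called at -1.16 ± 0.13, -1.39 ± 0.14, -1.62 ± 0.14, -1.43 ± 0.16, -1.39 ± 0.16 and -1.30 ± 0.16.

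HSPA4L, a relative of the exchange factor HSPA4, stood at 21.2, 29.1, 30.8 and 30.8 CPM in untreated SK-MEL-147. It stood at 6.52, 4.95, 4.08 and 5.42 CPM with doxorubicin, 5.95, 6.48, 5.16 and 4.82 CPM with palbociclib and 3.99, 3.08, 4.18 and 3.77 CPM with INK128 there, far below the controls. In A549 it was 61.3, 55.6 and 52.4 CPM in controls, 38.5, 61.6 and 54.2 CPM with doxorubicin, 32.4, 54.4 and 48.0 CPM with palbociclib and 17.6, 18.9 and 16.5 CPM with INK128. There the samples of the first 2 drugs overlapped with control (-0.13 ± 0.20 and -0.33 ± 0.20, not called), and those of INK128 did not (-1.67 ± 0.21, called). The SK-MEL-147 changes were -2.42 ± 0.17, -2.32 ± 0.17 and -2.90 ± 0.17. Few HSPA genes rose: HSPA12A, a distant relative of HSP70, was called higher with doxorubicin in A549 (0.88 ± 0.22) and with each drug in SK-MEL-147 (0.69 ± 0.15, 0.78 ± 0.15 and 0.64 ± 0.15). In A549 palbociclib and INK128 gave 0.47 ± 0.22 and 0.50 ± 0.22 for HSPA12A, called only with a replicate block. HSPA2, known from germ cells, was called higher with doxorubicin in A549 (0.83 ± 0.31), a call lost in 5 of 6 omissions of 1 sample, all but those of doxorubicin replicate 2 (0.72 to 0.96, adjusted p 0.0613 to 0.139, edgeR). HSPA2 changed by 0.48 ± 0.31 with palbociclib and by -0.39 ± 0.31 with INK128 there, both called only with a replicate block. HSPA6, a strictly stress-induced gene, had low counts in both lines, at most 2.49 CPM in any sample. It was called lower with INK128 in A549 (-2.90 ± 0.51), where doxorubicin and palbociclib gave -0.82 ± 0.44 and -1.07 ± 0.45, not called, palbociclib being called with a replicate block (-1.02). In SK-MEL-147 it was called lower with doxorubicin (-1.92 ± 0.40) and palbociclib (-1.25 ± 0.39) and not called with INK128 (-0.69 ± 0.37). Samples of A549 with INK128 and of SK-MEL-147 with doxorubicin did not overlap with control.

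In the mitochondrial set the main chaperones fell. HSPD1 (ENSG00000144381, chromosome 2, 197486581 to 197516737), the mitochondrial chaperonin, stood at 1299, 1368 and 1294 CPM in untreated A549 and at 586, 807 and 777 CPM with doxorubicin, 631, 901 and 792 CPM with palbociclib and 719.6, 738 and 702 CPM with INK128. In SK-MEL-147 it was 730.2, 1086, 1040.3 and 1161 CPM in controls, 399, 317, 308 and 268 CPM with doxorubicin, 435, 456, 468 and 353 CPM with palbociclib and 416, 300.3, 348 and 326 CPM with INK128. No treated sample reached a control in either line, and the changes were -0.87 ± 0.15, -0.77 ± 0.15 and -0.87 ± 0.15 in A549, with -1.64 ± 0.16, -1.23 ± 0.16 and -1.53 ± 0.16 in SK-MEL-147. HSPE1, its lid, was called lower in SK-MEL-147 (-1.01 ± 0.20, -0.83 ± 0.20 and -1.45 ± 0.20). In A549 HSPE1 was not called (-0.24 ± 0.34, -0.27 ± 0.34 and -0.68 ± 0.34), with replicate 1 the highest of each treated group (162, 82.9 and 75.5 CPM with doxorubicin against 133, 132 and 112 CPM in control). Without replicate 1 in all A549 groups it was -0.60, -0.49 and -0.98, all called, and with a replicate block INK128 was called at -0.77. HSPA9, the HSP70 that pulls proteins into the mitochondrion, was called lower throughout, at -0.52 ± 0.11, -0.41 ± 0.11 and -0.63 ± 0.11 in A549, with -0.93 ± 0.11, -0.70 ± 0.11 and -1.18 ± 0.11 in SK-MEL-147. Its DNAJ partner DNAJA3 was too, at -0.77 ± 0.15, -0.70 ± 0.15, -0.70 ± 0.15, -0.54 ± 0.09, -0.42 ± 0.09 and -0.53 ± 0.09 in the same order. Among 8 mitochondrial members (these 4, DNAJC11, DNAJC15, DNAJC19 and DNAJC30), 4, 4 and 3 were lower and none higher in A549, where 20.9%, 21.1% and 19.7% of all genes were lower. In SK-MEL-147 6, 5 and 6 were lower and 1, 1 and 0 higher, where 28.9%, 28.7% and 28.9% of all genes were lower and 30.9%, 29.7% and 29.8% higher. Of these 8, the one called higher was DNAJC30 (0.65 ± 0.12 and 0.73 ± 0.12). DNAJC4 and DNAJC28 were not placed in this set, and the counts hold only for the 8 genes as chosen. DNAJC4 was called higher with each drug in each line. DNAJC28 was called higher with each drug in SK-MEL-147 and with doxorubicin in A549, and was not called with palbociclib or INK128 there. DNAJC15 was near absent from A549 outside replicate 1, and its A549 change was not called (2.68 ± 1.44, 2.56 ± 1.44 and 1.58 ± 1.48). With a replicate block doxorubicin and palbociclib were called (2.09 and 2.11).

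Among 8 genes of the ER (HSPA5, HSPA13, HSP90B1, DNAJB9, DNAJB11, DNAJC1, DNAJC3 and DNAJC10), doxorubicin and palbociclib each left 1 higher in both lines, with 1 lower in A549 and none in SK-MEL-147. Of all genes, 22.4% and 22.2% were higher and 20.9% and 21.1% lower in A549. The SK-MEL-147 shares were 30.9% and 29.7% higher and 28.9% and 28.7% lower. DNAJB12 and DNAJB14, of the ER membrane, are described with the DNAJB class and are not among the 8, though DNAJC1, of the same membrane, is. DNAJB12 was called lower with each drug in A549 and DNAJB14 higher with each drug in SK-MEL-147. The counts for the ER thus depend on which genes were placed in the set. DNAJB9 was called higher with each drug in each line, and the HSPA13 gene was called lower in A549 (-0.52 ± 0.10, -0.29 ± 0.10 and -0.41 ± 0.10), where the palbociclib call was lost in 5 of 6 omissions of 1 sample, all but those of control replicate 2 (-0.30 to -0.23). DNAJB9, a co-chaperone that holds back the stress sensor IRE1 (ENSG00000128590, chromosome 7, 108569568 to 108574850), stood at 20.3, 22.6 and 25.5 CPM in untreated A549, 79.8, 70.3 and 78.2 CPM with doxorubicin, 85.7, 75.4 and 82.7 CPM with palbociclib and 31.9, 25.2 and 31.5 CPM with INK128. SK-MEL-147 samples had 12.6, 10.2, 10.3 and 12.5 CPM in controls, 26.1, 33.4, 27.7 and 28.9 CPM with doxorubicin, 26.0, 30.8, 26.7 and 28.3 CPM with palbociclib and 14.5, 24.0, 20.4 and 22.6 CPM with INK128. All treated samples lay above all controls except in A549 with INK128, where 1 sample lay below the highest control. The changes were 1.74 ± 0.13, 1.83 ± 0.13 and 0.37 ± 0.13 in A549, with 1.35 ± 0.14, 1.30 ± 0.14 and 0.84 ± 0.14 in SK-MEL-147. The A549 call with INK128 was lost in 4 of 6 omissions of 1 sample, all but those of INK128 replicate 2 and control replicate 3 (0.28 to 0.35, adjusted p 0.111 to 0.144, edgeR).

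HSPA5 (BiP), the main HSP70 of the ER, stood at 729, 789.9 and 918 CPM in untreated A549 and at 959.9, 599 and 725 CPM with doxorubicin, 885, 608 and 723 CPM with palbociclib and 612, 508 and 568 CPM with INK128. Levels in SK-MEL-147 were 626, 617, 810.1 and 966 CPM in controls, 782, 845, 485 and 567 CPM with doxorubicin, 911, 839.6, 563 and 557 CPM with palbociclib and 546, 559.5, 365 and 429.7 CPM with INK128. The samples of doxorubicin and palbociclib overlapped with control and were not called (-0.09 ± 0.19, -0.14 ± 0.19, -0.17 ± 0.22 and -0.07 ± 0.22). INK128 lay below every control and was called lower in both lines (-0.53 ± 0.19 and -0.67 ± 0.22), though the A549 call was lost in 5 of 6 omissions of 1 sample, all but those of control replicate 1 (-0.59 to -0.45), and the SK-MEL-147 call without INK128 replicate 3 or control replicate 4 (-0.56 to -0.53). DNAJB11, a co-chaperone of BiP, was likewise called lower with INK128 in both lines (-1.15 ± 0.24 and -0.73 ± 0.17). With doxorubicin and palbociclib DNAJB11 changed by -0.44 ± 0.24 and -0.48 ± 0.24 in A549, not called. In SK-MEL-147 these values were -0.34 ± 0.17 and -0.23 ± 0.17, not called either. With a replicate block DNAJB11 was called for both drugs in both lines. DNAJC3, which binds misfolded proteins in the ER and inhibits the kinase PERK, was called lower with INK128 in SK-MEL-147 (-0.33 ± 0.13), lost without INK128 replicate 1 or 3, or control replicate 3 or 4 (-0.32 to -0.24). In A549 its changes were 0.26 ± 0.14, 0.32 ± 0.14 and -0.34 ± 0.14, not called, and with a replicate block all 3 were called (0.27, 0.33 and -0.34); palbociclib in SK-MEL-147 went from 0.24 ± 0.13, not called, to 0.24, called, with the block. With INK128, 4 of the 8 ER genes were lower and 1 higher in A549, and 5 lower and 1 higher in SK-MEL-147, against 1 and none lower with doxorubicin. With INK128 19.7% and 28.9% of all genes were lower in the respective lines.

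The small heat shock protein genes CRYAB, HSPB1 and HSPB8 rose with doxorubicin and palbociclib in both lines, and were not called higher with INK128. CRYAB, a crystallin that keeps unfolding proteins soluble (ENSG00000109846, chromosome 11, 111908565 to 111923722), had 7, 10 and 8 counts in the untreated A549 samples and 3, 1, 0 and 2 in those of SK-MEL-147. It had 271, 916 and 267 counts with doxorubicin and 306, 924 and 277 with palbociclib in A549. In SK-MEL-147 it had 56, 80, 60 and 68 counts with doxorubicin and 66, 48, 47 and 39 with palbociclib. With INK128 it had 6, 17 and 12 counts in A549, while the SK-MEL-147 samples had 1, 1, 2 and 8. Every doxorubicin and palbociclib sample was above every other sample of its line. In CPM these were 10.5, 13.6 and 9.29 with doxorubicin and 10.5, 14.6 and 8.96 with palbociclib in A549 against 0.221, 0.154 and 0.268 in control. The log2 changes were 5.75 ± 0.32 and 5.78 ± 0.32 in A549, with 5.44 ± 0.53 and 5.25 ± 0.53 in SK-MEL-147, the last pair against 6 counts over the whole control group, so that their size is uncertain. In the same order edgeR's adjusted p was 1.19e-06, 6.1e-07, 2.09e-07 and 4.02e-07. INK128 was not called (0.48 ± 0.37 and 0.96 ± 0.74). HSPB2 and HSPB2-C11orf52 lie opposite 20.6% of the exon bases of CRYAB, and HSPB2 had 1 count in all.

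HSPB8, which works with BAG3 in the disposal of misfolded proteins (ENSG00000152137, chromosome 12, 119178642 to 119221131), stood at 15.4, 16.4 and 14 CPM in untreated A549, 39.5, 62.4 and 48.5 CPM with doxorubicin, 37.5, 63.1 and 50.6 CPM with palbociclib and 9.10, 13.4 and 9.87 CPM with INK128. In SK-MEL-147 it was 16.3, 14.8, 13.5 and 11.6 CPM in controls, 38.5, 38.3, 56.4 and 59.6 CPM with doxorubicin, 35.9, 36.3, 56.4 and 49.0 CPM with palbociclib and 9.47, 7.48, 7.95 and 6.54 CPM with INK128. Both inducers of senescence lay above all controls and INK128 below them, in both lines. The changes were 1.71 ± 0.22, 1.72 ± 0.22 and -0.50 ± 0.22 in A549, with 1.78 ± 0.19, 1.66 ± 0.19 and -0.84 ± 0.19 in SK-MEL-147. All were called except INK128 in A549, which was called with a replicate block (-0.52, edgeR adjusted p 0.00518) and without INK128 replicate 2 (-0.69).

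HSPB1 (HSP27), an abundant small heat shock protein that also guards actin filaments (ENSG00000106211, chromosome 7, 76302544 to 76304295), stood at 293, 228 and 195 CPM in untreated A549, 509.6, 479 and 485 CPM with doxorubicin, 448, 454 and 391 CPM with palbociclib and 274, 229 and 194 CPM with INK128. SK-MEL-147 samples had 76.4, 97.9, 71.1 and 71.2 CPM in controls, 165, 138, 118 and 96.1 CPM with doxorubicin, 166, 133, 121 and 89.0 CPM with palbociclib and 70.6, 61.7, 35.8 and 33.6 CPM with INK128. In A549 both inducers were above all controls, while in SK-MEL-147 their lowest sample lay below the highest control. The changes were 1.04 ± 0.17 and 0.85 ± 0.16 in A549, with 0.71 ± 0.24 and 0.68 ± 0.24 in SK-MEL-147, all called; the SK-MEL-147 calls were lost without doxorubicin replicate 1 (0.58) or, for palbociclib, without palbociclib replicate 1 or control replicate 3 or 4 (0.53 to 0.63). With INK128 HSPB1 was not called in A549 (-0.04 ± 0.16) and was called lower in SK-MEL-147 (-0.65 ± 0.24), a call lost without control replicate 2 or INK128 replicate 3 or 4 (-0.52 to -0.49). Fibroblast markers moved with these rises: the 10 genes summed to 17.0 to 24.9 CPM in untreated SK-MEL-147, 63.8 to 135 CPM with doxorubicin, 95.2 to 173 CPM with palbociclib and 8.02 to 25 CPM with INK128. In A549 they summed to 8.78 to 23.8, 29 to 42.3, 26.7 to 35.4 and 9.35 to 10.9 CPM. LUM and COL1A1 led the list in SK-MEL-147 controls and inducer groups and made up most of the sum, THY1 had no count with any drug and DCN none with palbociclib or INK128; the markers' part in the result was not tested.

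Both remaining genes with an HSPB symbol bind other chaperones and are no small heat shock proteins. HSPBP1, an exchange factor of HSP70, was called lower with each drug, at -1.21 ± 0.11, -1.12 ± 0.11 and -0.55 ± 0.11 in A549, with -0.58 ± 0.11, -0.55 ± 0.11 and -0.34 ± 0.11 in SK-MEL-147. HSPBAP1, which binds HSPB1, was called higher with INK128 (0.91 ± 0.26 and 0.68 ± 0.21), and INK128 replicate 1 was the highest sample in both lines; without it the values were 0.73 (edgeR adjusted p 0.06) and 0.35 (0.0572), and without control replicate 1 in A549 0.78 (0.0627). HSPB6 had 219 counts over all libraries and passed the filter only in the fit of both lines. HSPB2, HSPB3, HSPB7 and HSPB9, genes of muscle, heart or testis, had 1, 16, 1 and 10 counts.

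**Figure D3:**
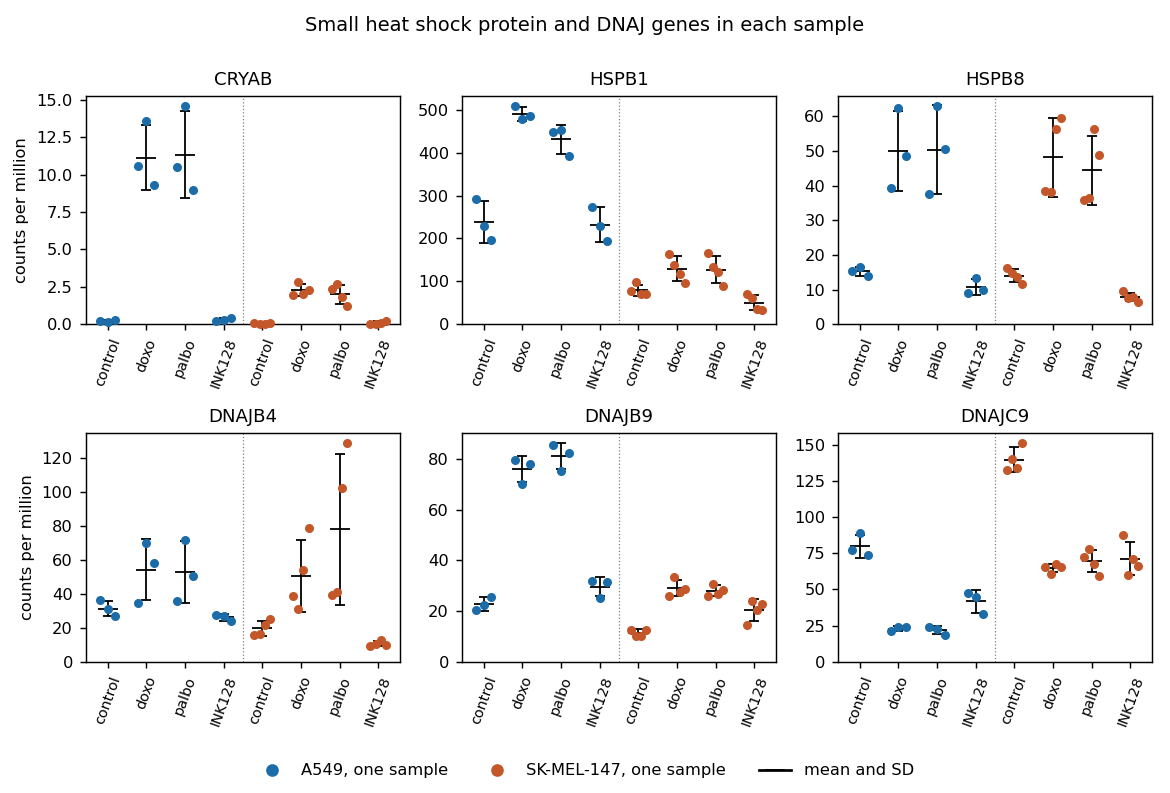
Level in CPM (y axis, from 0) of CRYAB, HSPB1, HSPB8, DNAJB4, DNAJB9 and DNAJC9 in each of the 28 samples, by group; points are samples and bars are mean and SD (n = 3 in A549, n = 4 in SK-MEL-147). CRYAB and HSPB8 are higher in all doxorubicin and palbociclib samples than in control and INK128 samples, while DNAJC9 is highest in control samples.

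The DNAJA and DNAJB genes encode J domain co-chaperones, many of which serve cytosolic HSP70, while others serve the mitochondrion or the ER. DNAJA1, the main partner of HSPA8, was called lower with INK128 in A549 (-1.04 ± 0.16) and with each drug in SK-MEL-147 (-0.61 ± 0.15, -0.60 ± 0.15 and -1.55 ± 0.16). With doxorubicin and palbociclib in A549 its values were -0.28 ± 0.16 and -0.26 ± 0.16, called only with a replicate block (-0.28 and -0.26). DNAJA2 was called lower with INK128 (-0.45 ± 0.09 and -0.42 ± 0.10) and higher with palbociclib in SK-MEL-147 (0.32 ± 0.10).

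DNAJB1 (HSP40), the classic inducible partner of HSP70, differed between the lines. It stood at 159, 223 and 156 CPM in untreated A549, 122, 170.0 and 148 CPM with doxorubicin, 121, 171 and 148 CPM with palbociclib and 88.0, 106 and 83.9 CPM with INK128. Levels in SK-MEL-147 were 156, 190.0, 263 and 192 CPM in controls, 275, 318, 397 and 327 CPM with doxorubicin, 296, 309, 389.6 and 340.3 CPM with palbociclib and 131, 156, 165 and 115 CPM with INK128. In SK-MEL-147 both inducers lay above all controls (0.72 ± 0.16 and 0.74 ± 0.16, called), whereas in A549 they overlapped with control (-0.29 ± 0.19 and -0.29 ± 0.19, called lower only with a replicate block, at -0.28 and -0.28). INK128 was called lower in both lines (-0.95 ± 0.19 and -0.50 ± 0.16), the SK-MEL-147 call being lost without control replicate 3 (-0.35) or INK128 replicate 4 (-0.41).

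DNAJB4, a cytosolic co-chaperone, stood at 15.6, 16.4, 21.3 and 24.8 CPM in untreated SK-MEL-147, 38.9, 30.8, 54.1 and 78.8 CPM with doxorubicin, 39.3, 41.2, 102 and 129 CPM with palbociclib and 9.38, 10.6, 12.8 and 9.49 CPM with INK128. The groups did not overlap with control, and the palbociclib samples were the most spread. Its changes were 1.37 ± 0.35, 2.00 ± 0.36 and -0.89 ± 0.35 there, the last lost in 6 of 8 omissions of 1 sample, all but those of INK128 replicate 3 and control replicate 1 (-0.95 to -0.76). In A549 its values were 0.79 ± 0.27, 0.76 ± 0.27 and -0.26 ± 0.27, the last not called. Replicate 1 of both inducers overlapped with control. The doxorubicin call was lost in 4 of 6 omissions of 1 sample, all but those of doxorubicin replicate 1 and control replicate 1 (0.57 to 0.79), and the palbociclib call in 5 of 6 omissions of 1 sample, all but those of palbociclib replicate 1 (0.46 to 0.87). DNAJB5 stood at 11.3, 11.3, 10.8 and 13.1 CPM in untreated SK-MEL-147 and at 31.5, 29.9, 51.1 and 44.4 CPM with doxorubicin; its changes were 1.75 ± 0.18, 1.24 ± 0.18 and 0.49 ± 0.18 there, called, the last lost without INK128 replicate 2 or 3, or control replicate 2 or 3 (0.36 to 0.49). In A549 it went from 4.79, 4.34 and 3.38 CPM to 1.31, 1.36 and 1.04 CPM with INK128 (-1.75 ± 0.19, called), was called higher with doxorubicin (0.65 ± 0.18, lost without control replicate 3) and not called with palbociclib (0.07 ± 0.18). DNAJB2, a co-chaperone that directs clients to degradation, was called higher with doxorubicin in both lines (1.09 ± 0.15 and 0.90 ± 0.15), and with palbociclib in A549 (0.74 ± 0.15) but not in SK-MEL-147 (0.30 ± 0.15). With INK128 it was called higher in both (0.47 ± 0.15 and 0.43 ± 0.15), the SK-MEL-147 call lost without INK128 replicate 2, or control replicate 2, 3 or 4 (0.37 to 0.42). DNAJB14, of the ER membrane, was called higher with each drug in SK-MEL-147 (0.77 ± 0.09, 0.61 ± 0.09 and 0.45 ± 0.09). It was not called in A549 (-0.21 ± 0.11, -0.21 ± 0.11 and -0.22 ± 0.11). DNAJB12, which sits in the ER membrane, was called lower with each drug in A549 (-0.45 ± 0.15, -0.43 ± 0.15 and -0.44 ± 0.15). The doxorubicin call was lost in 4 of 6 omissions of 1 sample, all but those of doxorubicin replicate 3 and control replicate 2 (-0.47 to -0.29), the palbociclib call in 4 of 6 omissions of 1 sample, all but those of palbociclib replicate 3 and control replicate 2 (-0.43 to -0.33), and the INK128 call in 5 of 6 omissions of 1 sample, all but those of control replicate 2 (-0.48 to -0.37). DNAJB6, a suppressor of protein aggregates, was called lower with each drug in SK-MEL-147 (-0.38 ± 0.09, -0.34 ± 0.09 and -0.68 ± 0.09) and with INK128 in A549 (-0.32 ± 0.10), the last lost without INK128 replicate 3 or control replicate 2 (-0.31 to -0.29).

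The DNAJC genes are a mixed class that share the J domain and little else. Their median change lay between -0.32 and 0.04 over the 6 comparisons with control, with calls in both directions in each of them. DNAJC9, a histone chaperone of replicating cells (ENSG00000213551, chromosome 10, 73183362 to 73248862), stood at 77.3, 88.8 and 73.8 CPM in untreated A549, 21.0, 23.7 and 23.8 CPM with doxorubicin, 24.0, 22.6 and 18.6 CPM with palbociclib and 47.9, 44.7 and 32.8 CPM with INK128. In SK-MEL-147 it was 133, 140.5, 134 and 152 CPM in controls, 65.6, 61.0, 67.5 and 65.6 CPM with doxorubicin, 72.8, 77.9, 67.8 and 59.7 CPM with palbociclib and 87.6, 60.3, 71.5 and 66.2 CPM with INK128. No treated sample reached a control, and in A549 all INK128 samples lay above all those of the inducers. The changes were -1.81 ± 0.16, -1.88 ± 0.16 and -0.94 ± 0.15 in A549, with -1.11 ± 0.11, -1.01 ± 0.11 and -0.97 ± 0.11 in SK-MEL-147; 28.6% of its exon bases lie opposite other annotated genes. Of 20 proliferation genes, 20, 20 and 18 were called lower in each line with doxorubicin, palbociclib and INK128. Among all genes tested in A549 the lower shares were 20.9%, 21.1% and 19.7%, in that order. For SK-MEL-147 these shares were 28.9%, 28.7% and 28.9%. Whether the fall of DNAJC9 is tied to that of the proliferation genes was not tested. DNAJC2, which binds ribosomes, was also called lower throughout, at -0.75 ± 0.17, -0.72 ± 0.17 and -0.55 ± 0.17 in A549, with -1.07 ± 0.12, -0.86 ± 0.12 and -0.88 ± 0.12 in SK-MEL-147. The A549 call of DNAJC2 with INK128 was lost in 4 of 6 omissions of 1 sample, all but those of INK128 replicate 1 and control replicate 3 (-0.53 to -0.44). DNAJC11, of the mitochondrial outer membrane, was called lower with doxorubicin and palbociclib in A549 (-0.82 ± 0.17 and -0.75 ± 0.17) and with each drug in SK-MEL-147 (-0.48 ± 0.08, -0.48 ± 0.08 and -0.75 ± 0.09).

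DNAJC4, whose role is little known, was called higher with each drug, at 1.17 ± 0.18, 1.25 ± 0.18 and 1.03 ± 0.18 in A549, with 1.68 ± 0.19, 1.62 ± 0.19 and 1.13 ± 0.19 in SK-MEL-147. DNAJC12, a co-chaperone of the aromatic amino acid hydroxylases, stood at 10.2, 10.5 and 12.7 CPM in untreated A549, 68.2, 33.9 and 44.4 CPM with doxorubicin, 67.9, 37.3 and 45.2 CPM with palbociclib and 26.4, 19.3 and 29.9 CPM with INK128. Every treated A549 sample was above control, with replicate 1 the highest under both inducers. The changes were 2.13 ± 0.29, 2.17 ± 0.29 and 1.18 ± 0.28 in A549. In SK-MEL-147 DNAJC12 was called higher with both inducers (0.70 ± 0.20 and 0.85 ± 0.20) and lower with INK128 (-0.72 ± 0.21). DNAJC22 and DNAJC16 were called higher with each drug in SK-MEL-147, DNAJC22 at 1.03 ± 0.14, 0.98 ± 0.14 and 0.46 ± 0.14, and DNAJC16 at 0.89 ± 0.17, 1.09 ± 0.17 and 0.40 ± 0.17. Neither was called in A549 in the main fit. There DNAJC22 changed by -0.27 ± 0.22 with palbociclib and -0.34 ± 0.22 with INK128, and both were called with a replicate block. The INK128 call of DNAJC16 was lost in 5 of 8 omissions of 1 sample, all but those of INK128 replicate 1 and 4, and control replicate 1 (0.30 to 0.40). DNAJC18 was called higher with doxorubicin and palbociclib in A549 (0.67 ± 0.19 and 0.78 ± 0.19) and with each drug in SK-MEL-147 (0.81 ± 0.12, 0.86 ± 0.12 and 0.64 ± 0.12), the A549 doxorubicin call lost without doxorubicin replicate 3 or control replicate 2 (0.55 to 0.58). DNAJC1, an ER membrane protein, was called lower with INK128 in both lines (-0.59 ± 0.16 and -0.25 ± 0.09), the second call lost without INK128 replicate 3 or 4, or control replicate 4 (-0.24 to -0.21).

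Genes that work with these chaperones were read from lists drawn up by function. Beside each count of these lists stand the shares of all genes in the order doxorubicin, palbociclib, INK128: 20.9%, 21.1% and 19.7% were lower and 22.4%, 22.2% and 20.5% higher in A549. In SK-MEL-147 28.9%, 28.7% and 28.9% were lower and 30.9%, 29.7% and 29.8% higher. Of 30 HSP90 and HSP70 cochaperones, 15, 14 and 19 were called lower and 3, 4 and 2 higher with doxorubicin, palbociclib and INK128 in A549, and 19, 18 and 20 lower and 4, 6 and 2 higher in SK-MEL-147. FKBP5, a steroid receptor cochaperone, changed by -1.76 ± 0.13 and -1.96 ± 0.13 in A549 and by -3.21 ± 0.19 and -2.88 ± 0.18 in SK-MEL-147 with doxorubicin and palbociclib. CHORDC1, an HSP90 binder, changed by -1.31 ± 0.19 with doxorubicin and -1.24 ± 0.19 with INK128 in A549. CACYBP, which links HSP90 clients to ubiquitin ligases, changed by -1.34 ± 0.17 with palbociclib in A549 and by -2.09 ± 0.18 with doxorubicin in SK-MEL-147. Among those that rose were STUB1 (CHIP), the ubiquitin ligase of chaperone clients, at 1.06 ± 0.10 and 1.05 ± 0.10 in SK-MEL-147, and BAG1 at 0.60 ± 0.13 with palbociclib in A549. BAG2 changed by -1.93 ± 0.15 with INK128 in SK-MEL-147.

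Of 32 genes of ER folding and the unfolded protein response, 5, 6 and 1 were called higher and 2, 2 and 13 lower in A549, and 12, 14 and 4 higher and 8, 4 and 12 lower in SK-MEL-147, in the same order. With doxorubicin 22.4% and 20.9% of all genes were higher and lower in A549. The SK-MEL-147 shares were 30.9% and 28.9%. SIL1, the exchange factor of BiP, changed by 1.05 ± 0.11 and 0.97 ± 0.11 in A549 and by 2.24 ± 0.24 and 2.44 ± 0.24 in SK-MEL-147 with doxorubicin and palbociclib. SDF2L1, which works with DNAJB11, changed by -1.43 ± 0.23 and -1.51 ± 0.19 with INK128. The list of 17 mitochondrial partners and proteases had 6, 4 and 9 lower and none higher in A549 and 7, 8 and 10 lower and 1, 2 and 3 higher in SK-MEL-147. In that list TRAP1, the mitochondrial HSP90, changed by -0.99 ± 0.12 with doxorubicin in A549, with -1.17 ± 0.11 in SK-MEL-147, and GRPEL1, the exchange factor of HSPA9, by -0.92 ± 0.17 and -1.25 ± 0.12 with INK128. Of 25 prefoldin, CCT partner and tubulin folding genes, 5, 5 and 10 were lower and 1, 1 and 3 higher in A549, and 15, 13 and 16 lower and 4, 3 and 5 higher in SK-MEL-147. VBP1, a prefoldin subunit, changed by -0.98 ± 0.15 with INK128 in A549 and by -1.08 ± 0.12 with doxorubicin in SK-MEL-147. HSF1 itself was not called in A549, and in SK-MEL-147 was called higher with palbociclib (0.28 ± 0.11) and lower with INK128 (-0.37 ± 0.11). HSF2 was called lower in SK-MEL-147 with each drug (-0.57 ± 0.11, -0.64 ± 0.11 and -0.48 ± 0.11).

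INK128 was then set against the mean of both inducers of senescence. The inducers were withdrawn after 72 h and INK128 was renewed, so a difference in state cannot be told apart from presence of the drug. In A549, 6 of the 72 members were higher and 23 lower with INK128, where 25.9% and 23.1% of all genes were (49% in either direction). Without replicate 1 in all A549 groups 44 members were called in place of 29. In SK-MEL-147, 4 of 69 were higher and 30 lower, where 29.6% and 27.5% of all genes were (57.1% in either direction); against a minimum change of 1.2-fold 21 were called in place of 34. Among the small heat shock proteins CRYAB changed by -5.29 ± 0.29 and -4.39 ± 0.45, HSPB8 by -2.22 ± 0.21 and -2.56 ± 0.18 and HSPB1 by -0.98 ± 0.15 and -1.35 ± 0.22 in A549 and SK-MEL-147. The DNAJB class had 7 lower and none higher in each line, with DNAJB5 at -2.11 ± 0.18 in A549 and DNAJB4 at -2.57 ± 0.34 in SK-MEL-147 changing most. DNAJA1 was lower in both (-0.77 ± 0.14 and -0.94 ± 0.14), as were DNAJA2 (-0.43 ± 0.08 and -0.66 ± 0.09) and DNAJC12 (-0.97 ± 0.25 and -1.49 ± 0.19). HSPA4, an exchange factor, was called lower in both lines, at -0.57 ± 0.13 in A549 and -1.0 ± 0.09 in SK-MEL-147. HSPA4L was too, at -1.44 ± 0.19 and -0.53 ± 0.15. HSPA5 changed by -0.55 ± 0.19 in SK-MEL-147, where its call was lost without INK128 replicate 3 or 4 (-0.50 to -0.44). In A549 HSPA5 changed by -0.41 ± 0.17, called only with a replicate block. Of the 8 tested CCT genes none was called in A549 and only CCT3 in SK-MEL-147 (-0.31 ± 0.09). The higher calls in A549 included DNAJC9 (0.91 ± 0.13), HSPBP1 (0.61 ± 0.09) and DNAJC14 (0.41 ± 0.10), which shares exon bases with other genes. In SK-MEL-147 DNAJC17 was called higher (0.43 ± 0.10), with 26.1% of its exon bases opposite other genes. HSPBAP1 was called higher in both lines (0.84 ± 0.22 and 0.80 ± 0.18). Without INK128 replicate 1 the HSPBAP1 values were 0.66 and 0.47, still called. HSP90AB1 was called higher in A549 by 0.24 ± 0.08, lost in each of the 9 omissions of 1 sample (0.21 to 0.25).

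Palbociclib set against doxorubicin gave no called member in either line. In A549 none of all 19550 genes was called (0%), and in SK-MEL-147 8 genes were higher and 3 lower (0.0432% and 0.0162%, 0.0594% in either direction). At an unadjusted p under 0.05, edgeR had 3 of 72 members in A549 and 6 of 69 in SK-MEL-147, where 4.45% and 12.4% of all genes were. DNAJB5 was among them in both lines, at -0.58 ± 0.18 (edgeR adjusted p 0.838) and -0.52 ± 0.17 (0.21), and so was DNAJB2, at -0.35 ± 0.15 (1) and -0.60 ± 0.15 (0.0996); both were chosen after their values were seen. DESeq2 called none in A549 and 1 member in SK-MEL-147. The doses differed between drugs and lines, and a p that misses the threshold does not show that the drugs act alike.

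The difference between the lines was tested for each drug as the SK-MEL-147 change minus the A549 change, over 73 members. For doxorubicin 8 were higher and 11 lower in SK-MEL-147 than in A549, where 8.49% and 11.3% of all 21761 genes were (19.8% in either direction), and the median of all genes was -0.10. For palbociclib 8 were higher and 9 lower (8.37% and 10.8% of all genes, 19.2% in either direction, median -0.10), and for INK128 6 were higher and 6 lower (6.51% and 5.42%, 11.9% in either direction, median -0.03). The palbociclib and INK128 doses were not the same in both lines. HSPA4L was lower in SK-MEL-147 for each drug, at -2.40 ± 0.26, -2.12 ± 0.26 and -1.24 ± 0.26, and so was DNAJC12, at -1.55 ± 0.34, -1.45 ± 0.34 and -1.91 ± 0.35 (edgeR adjusted p 0.0017, 0.00348 and 0.00065). DNAJB5 was higher in SK-MEL-147 for each drug, at 0.99 ± 0.26, 1.04 ± 0.26 and 2.22 ± 0.27. DNAJC6, the auxilin that helps uncoat clathrin vesicles, was lower for doxorubicin (-1.05 ± 0.36) and palbociclib (-1.25 ± 0.37). The first call was lost in 10 of 14 omissions of 1 sample, all but those of A549 doxorubicin replicate 1, SK-MEL-147 doxorubicin replicate 1 and 2, and A549 control replicate 2 (-1.03 to -0.80) and the second without A549 palbociclib replicate 2, A549 control replicate 1, or SK-MEL-147 control replicate 1, 3 or 4 (-1.16 to -0.99). DNAJB14 was higher for each drug (0.86 ± 0.14, 0.68 ± 0.14 and 0.66 ± 0.14). DNAJB1 was higher for doxorubicin and palbociclib, at 0.89 ± 0.25 and 0.89 ± 0.25, calls lost without A549 control replicate 2 (0.70 and 0.70). Of the CCT genes, CCT6B included, 4 were called lower in SK-MEL-147 for doxorubicin, 4 for palbociclib and 2 for INK128, none higher, with CCT2 at -0.79 ± 0.17, -0.59 ± 0.17 and -0.55 ± 0.17. The palbociclib call of CCT2 was lost without A549 palbociclib replicate 2, or SK-MEL-147 control replicate 2, 3 or 4 (-0.52 to -0.33), and the INK128 call in 8 of 14 omissions of 1 sample, all but those of A549 INK128 replicate 3, SK-MEL-147 INK128 replicate 1, 3 and 4, A549 control replicate 2, and SK-MEL-147 control replicate 1 (-0.53 to -0.44). HSPD1 differed for doxorubicin (-0.88 ± 0.23), lost without SK-MEL-147 control replicate 2 (-0.67) or 4 (-0.64). For INK128 the count was 19 with a replicate block in place of 12, and 7 without A549 INK128 replicate 1 or without replicate 2. For doxorubicin the count was 12 without SK-MEL-147 control replicate 2, in place of 19, and for palbociclib 11 without SK-MEL-147 control replicate 3, in place of 17. No small heat shock protein was called different between the lines: the values were, for CRYAB, -0.42 ± 0.97, -0.64 ± 0.90 and 0.48 ± 0.81, for HSPB1 -0.45 ± 0.33, -0.29 ± 0.33 and -0.63 ± 0.33 (the last called with a replicate block, -0.70), and for HSPB8 -0.05 ± 0.30, -0.19 ± 0.30 and -0.36 ± 0.30.

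**Figure D4:**
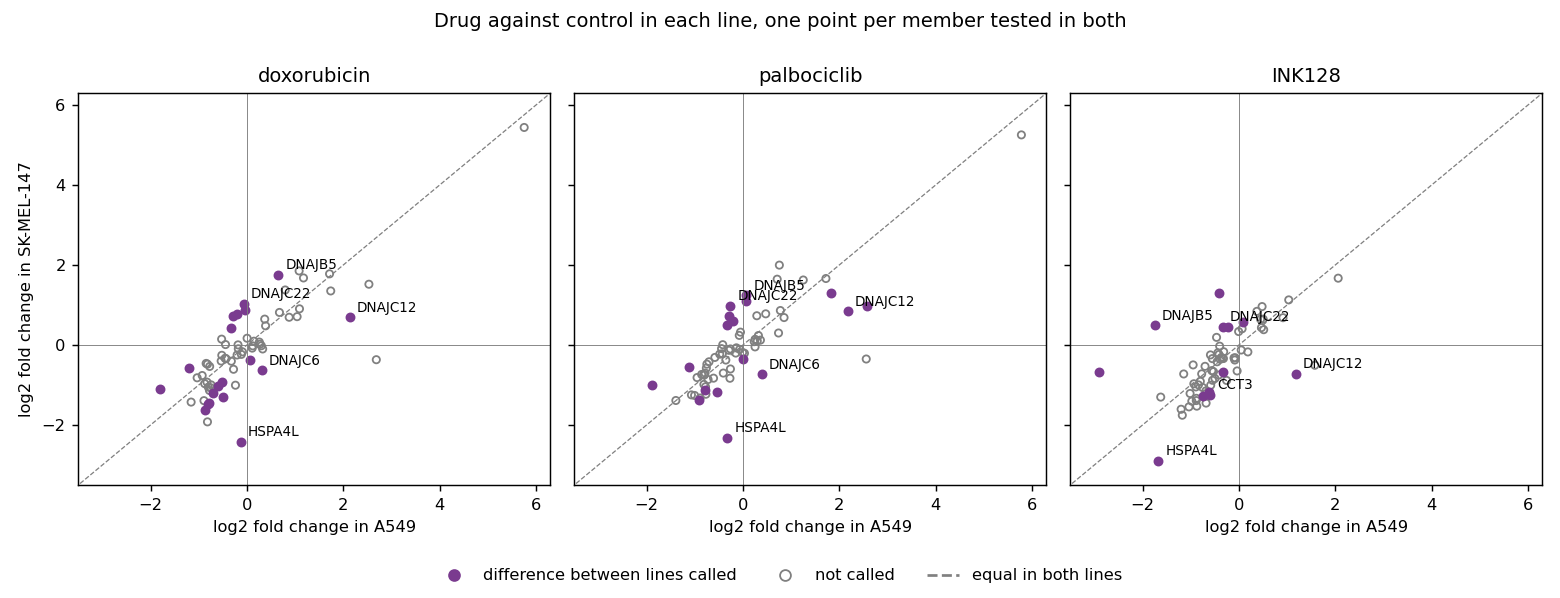
Log2 fold change of drug against control in A549 (x axis) and SK-MEL-147 (y axis), 1 point per member tested in both lines and 1 panel per drug; filled points were called different between the lines and the dashed line marks equal change. The labelled genes are the 5 with the largest called difference and at least 5 CPM in 1 group; HSPA4L and DNAJC12 lie below the line and DNAJB5 above it in each panel.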

How the data were processed

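The deposited values are raw counts per gene, which the authors made with featureCounts after alignment by STAR 2.7.10a; the genome build was GRCh38.p13, all per the submitters' processing notes. The annotation release, strand setting and treatment of multiply mapped reads are not given in the sources used here. The A549 libraries titled 2 and 2-2 carry the same replicate number and were added, giving 3 A549 samples. Whether 2-2 is a repeat of 2 is in doubt: over genes with 50 or more counts the SD of their log2 ratio was 0.415 to 0.517, against 0.142 to 0.200 between 2-2 and 3, which still differed beyond counting noise (chi-square 4.93 to 10.8 per gene). The labels do not say that replicates are separate cultures, so p-values measure the spread between these samples.

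Each line was fitted with edgeR 4.0.16 (R 4.3.3; filterByExpr, TMM, quasi-likelihood F test, two-sided) over its 4 groups, with no block, and Benjamini-Hochberg adjustment over all genes tested; line differences used all 8 groups. In all, 13 comparisons were made. CPM are scaled by TMM library size. Same-numbered A549 samples deviated together in every pair (correlations 0.164 to 0.815), as they did in SK-MEL-147 except between doxorubicin and control (lowest 0.0769) and INK128 and palbociclib (lowest 0.0667). Named members were a panel of 20 and, in each comparison and subfamily, up to 2 called genes per direction with 5 CPM or more in the higher group; in line differences up to 5 per direction, and in each list of partners up to 2. CCT4, CCT6B, CCT7, DNAJC15, HSPA13, HSPA6 and the members too low to test were named after their values were seen. The members and lists were chosen with earlier results of these data known. Alternatives were RLE factors, library size alone, no mitochondrial genes, no filter, DESeq2 1.42.0, the block, libraries 2 and 2-2 apart or singly, omitted replicates, 1 fit over both lines and a minimum change of 1.2-fold. Promoters are RefSeq's (GRCh38.p14). The code was tested on simulated data.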

Additional observations from a re-analysis of the deposited data

Results flagged for a closer look

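In SK-MEL-147, where groups held 4 samples, 208 groups of member and treatment were examined for a sample far from the other 3, and 13 had one; chance alone gives about 1 in 20. Values are CPM. DNAJA2 stood at 126 in control replicate 1, with the others at 146 to 149. The control replicate 3 value of DNAJB11 was 61.9, where the rest of its group had 73.5 to 75.5. For DNAJB2, control replicate 1 had 60.3 and the other samples 48.0 to 49.0. DNAJC12 stood at 6.13 in palbociclib replicate 4, with the others at 9.28 to 9.59. The palbociclib replicate 3 value of DNAJC14 was 51.5, where the rest of its group had 54.5 to 54.9. For DNAJC14, INK128 replicate 2 had 62.2 and the other samples 55.5 to 56.2. DNAJC16 stood at 32.7 in palbociclib replicate 3, with the others at 40.6 to 42.1. The doxorubicin replicate 3 value of DNAJC30 was 17.4, where the rest of its group had 14.5 to 15.0. For DNAJC4, control replicate 1 had 14.2 and the other samples 9.91 to 10.1. HSPA12A stood at 5.70 in palbociclib replicate 1, with the others at 8.48 to 8.78. The INK128 replicate 2 value of HSPA2 was 0.0993, where the rest of its group had 0.211 to 0.226. For HSPBAP1, INK128 replicate 1 had 33.5 and the other samples 15.6 to 17.4. HSPBP1 stood at 38.7 in INK128 replicate 1, with the others at 44.0 to 45.0.

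The change from control differed between the lines by the interaction test (edgeR, adjusted p under 0.05) for these members, given as the SK-MEL-147 log2 change minus that of A549. For doxorubicin the difference was positive in DNAJB5 (0.99), DNAJC22 (0.98), DNAJB1 (0.89), DNAJB14 (0.86) and DNAJC16 (0.80). It was negative in HSPA4L (-2.40), DNAJC12 (-1.55), DNAJC6 (-1.05), CCT8 (-0.93) and HSPD1 (-0.88). For palbociclib the difference was positive in DNAJC22 (1.12), DNAJB5 (1.04), DNAJC16 (0.89), DNAJB1 (0.89) and DNAJC9 (0.74). It was negative in HSPA4L (-2.12), DNAJC12 (-1.45), DNAJC6 (-1.25), CCT8 (-0.76) and DNAJB9 (-0.67). For INK128 the difference was positive in DNAJB5 (2.22), DNAJC22 (0.78), DNAJB14 (0.66) and DNAJC14 (0.48). It was negative in DNAJC12 (-1.91), HSPA4L (-1.24), CCT3 (-0.66), HSPA9 (-0.57) and CCT2 (-0.55). The doses of palbociclib and INK128 were not equal in both lines.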

How the results depend on the processing

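Among the values of named members under all alternatives, 6030 kept their side of the threshold, 339 lost the call and 48 gained one. No value called in the main fit or in the alternative changed direction. Direction was not compared for values called in neither. Among counts of called members, INK128 against both inducers in A549 went from 29 to 44 without replicate 1 in all A549 groups, and in SK-MEL-147 from 34 to 21 against a minimum change of 1.2-fold. Palbociclib against doxorubicin in SK-MEL-147 went from 0 to 1 with no filter and to 1 with DESeq2. For the palbociclib line difference the count was 11 with library 2 alone (main value 17). For the INK128 line difference it was 6 with no filter, 19 with a replicate block and 7 with the minimum change (main value 12). The causes were not tested, beyond fewer samples or stricter tests in the settings so built. Over all members and all 13 comparisons, which share samples, the block went from 391 to 465 calls, with 74 gained and none lost; 7 of those gained were in the INK128 line difference (DNAJA1, DNAJB1, DNAJC13, HSP90AB1, HSPB1, HSPD1 and HSPH1).

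With 1 sample left out, the counts ran from 32 to 38 (doxorubicin), 29 to 36 (palbociclib), 34 to 40 (INK128), 0 to 0 (palbociclib against doxorubicin) and 24 to 30 (INK128 against inducers) in A549. In SK-MEL-147 they were 47 to 50, 44 to 47, 50 to 59, 0 to 1 (1 without doxorubicin replicate 1) and 28 to 37. The line differences ran from 12 to 19, 11 to 19 and 7 to 14. An arm left with fewer samples is assumed to vary like the others. Depth limits CRYAB outside the inducer groups, CCT6B in SK-MEL-147, HSPA6 in both lines and DNAJC15 in A549, where groups hold few counts.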
